A study of Mus musculus with 2 samples.

Results

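The genes described here are those that make, package, clear and sense the inhibitory transmitter GABA in mouse cortex: Gad1 and Gad2 (synthesis), Slc32a1 and Slc6a11 (transport), Abat (breakdown), and Gabbr1 and Gabbr2 (the GABA-B receptor). They were chosen by gene symbol, and all 7 were found among the 55536 annotated genes. Total RNA was sequenced from left cerebral cortex tissue of 2 females, adults between 8 and 10 months old, of strain B6CASTF1/J, the F1 cross of the C57BL/6J and CAST/EiJ inbred lines. Ribosome-reduced RNA (300 ng a library) was spiked with synthetic ERCC transcripts, and the labels name no treatment. Replicate 1 is animal 1 and replicate 2 is animal 5. The labels give both animals the same donor entry, so the animal numbers alone set them apart. With 1 group and no contrast, the questions are how much of each gene the tissue held, as which transcripts, and how far the libraries differed. No test was possible, and no p-value is given.

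GABA is made from glutamate by the glutamate decarboxylases GAD67 (Gad1) and GAD65 (Gad2), which need pyridoxal phosphate as a cofactor. The vesicular transporter VGAT (Slc32a1) loads GABA into synaptic vesicles, plasma membrane transporters such as that of Slc6a11, found mainly on astrocytes, take it back up, and the mitochondrial GABA transaminase (Abat) starts its breakdown. The metabotropic GABA-B receptor is an obligate pair: the Gabbr1 subunit binds GABA, and the Gabbr2 subunit carries the pair to the membrane and couples it to Gi/o proteins, which open inward rectifier potassium channels and restrain transmitter release. Gabbr1 gives rise to GABA-B1a and GABA-B1b from separate starts; GABA-B1a alone carries a pair of sushi domains near its N-terminus, which are known to guide it to axon terminals.

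The transcript models that the results turn on differ at a few splice junctions, so the bases that tell them apart are shown first. All sequences are from the GENCODE M21 transcripts of mm10, plus strand, read 5′ to 3′. For Gad1, the models Gad1-201 and Gad1-206 join the same exon, which starts at base 70567186 of chromosome 2. Gad1-201 reaches it from the exon with the start codon, and Gad1-206 from a first exon of its own of 77 nt that lies 2545 nt downstream of the start codon. The last 30 bases before the junction are in capitals and the first 30 bases of the shared exon in lower case.
Gad1-201: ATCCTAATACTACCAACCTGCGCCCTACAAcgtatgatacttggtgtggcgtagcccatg
Gad1-206: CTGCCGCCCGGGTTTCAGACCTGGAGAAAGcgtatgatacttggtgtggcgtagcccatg

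For Gabbr1, the model of the GABA-B1a type (Gabbr1-201, 960 codons) and that of the GABA-B1b type (Gabbr1-203, 844 codons) meet at an exon that starts at base 37050999 of chromosome 17. Before it, Gabbr1-201 has 493 coding bases in 4 exons, and Gabbr1-203 has 145 coding bases continuous with the shared exon. The junctions are written as above.
Gabbr1-201: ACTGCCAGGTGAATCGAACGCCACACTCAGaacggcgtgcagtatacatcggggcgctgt
Gabbr1-203: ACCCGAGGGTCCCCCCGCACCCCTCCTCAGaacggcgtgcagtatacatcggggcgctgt

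The reading frames of these Gabbr1 models open differently. Shown with the start codon in capitals are the first coding exon of Gabbr1-201 (chr17:37046695-37046776) and the coding bases of Gabbr1-203 that Gabbr1-201 lacks (chr17:37050854-37050998).
Gabbr1-201: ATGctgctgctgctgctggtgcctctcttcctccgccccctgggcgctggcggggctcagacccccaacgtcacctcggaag
Gabbr1-203: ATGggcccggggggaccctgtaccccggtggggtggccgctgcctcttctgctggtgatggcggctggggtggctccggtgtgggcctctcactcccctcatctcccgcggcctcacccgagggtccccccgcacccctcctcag

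For Abat, the model Abat-203 lacks 1 coding exon of Abat-201 (chr16:8611127-8611294), whose 168 bases are 56 whole codons. The exon is shown in lower case, followed by the Abat-203 junction with the exon after the skip in capitals.
Abat-201: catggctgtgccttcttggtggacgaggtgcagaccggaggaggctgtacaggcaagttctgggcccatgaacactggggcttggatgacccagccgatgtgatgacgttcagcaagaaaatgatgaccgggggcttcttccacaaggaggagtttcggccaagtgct
Abat-203: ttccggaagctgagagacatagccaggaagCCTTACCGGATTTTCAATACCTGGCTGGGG

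Levels are given in TPM, a gene's length-scaled part of the library's transcripts, from the deposited gene table (the first table). A deposited transcript table from another quantification (the second table) was summed per gene as a comparison. Total expected counts were 28327434 in replicate 1 and 30234441 in replicate 2, and each of the 7 genes had between 3239 and 20934 counts in a library. Gabbr1 stood highest and Slc6a11 lowest, and the order of the 7 means was the same in both tables. The coefficient of variation between the libraries ranged from 0.687% to 6.35% of the mean.

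Gad1 (ENSMUSG00000070880.10, chr2:70553072-70602014, plus strand) stood at 245 TPM in replicate 1 and 249 in replicate 2, a mean of 247 ± 3.29 TPM (SD, n = 2). This was rank 240 among nuclear protein-coding genes, above 98.1% of those that reached 1 TPM in each library. Gad2 (ENSMUSG00000026787.3, chr2:22622205-22693874, plus strand) had 74.8 and 71.1 TPM, a mean of 72.9 ± 2.62 TPM (SD, n = 2) at rank 1489. The libraries of the synthesis genes did not overlap: both Gad1 values lay above both Gad2 values.

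The vesicular transporter gene Slc32a1 (ENSMUSG00000037771.11, chr2:158610767-158615748, plus strand) had 66.2 and 68.4 TPM, a mean of 67.3 ± 1.58 TPM (SD, n = 2). It has 1 annotated transcript, of 2 exons and 2797 nt, so its reads are not shared among models of the same gene. Its TPM still differed between the tables, with 55.2 and 57.5 TPM in the second. Slc6a11 (ENSMUSG00000030307.8, chr6:114131241-114249952, plus strand) had 51.6 and 49.1 TPM, a mean of 50.4 ± 1.81 TPM (SD, n = 2). Abat (ENSMUSG00000057880.12, chr16:8513429-8621568, plus strand) had 96.1 and 99.6 TPM, a mean of 97.8 ± 2.43 TPM (SD, n = 2). The uptake gene was thus below the breakdown gene in both libraries.

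Gabbr1 (ENSMUSG00000024462.17, chr17:37045966-37075067, plus strand) stood at 324 TPM in replicate 1 and 354 in replicate 2, a mean of 339 ± 21.5 TPM (SD, n = 2) at rank 141 among nuclear protein-coding genes. Gabbr2 (ENSMUSG00000039809.10, chr4:46662305-46991873, minus strand) had 102 and 101 TPM, a mean of 102 ± 0.700 TPM (SD, n = 2) at rank 957. The ligand-binding subunit was the more abundant in each library, and it had the widest spread of the 7 genes, while its partner had the narrowest.

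In the order of the means, Gabbr1 was followed by Gad1, Gabbr2, Abat, Gad2, Slc32a1 and Slc6a11, and each gene's 2 values lay above both values of the next. Gabbr2 and Abat were the closest pair in that order, with means 4.03 TPM apart, and Gad2 and Slc32a1 were 5.60 TPM apart. The deposited credibility intervals of Gabbr2 and Abat overlapped in replicate 2 (96.0 to 101 against 94.5 to 100.4 TPM), as did those of Gad2 and Slc32a1 (66.3 to 71.2 against 63.8 to 68.2 TPM), and both pairs were separate in replicate 1. The other 4 neighbouring pairs were separate in both libraries. The level of these intervals is not stated, and the deposited TPM lay above the upper bound for 4 of 7 genes in each library (Slc32a1, Slc6a11, Gabbr1 and Gabbr2), so a bound is not an error bar around the TPM.

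**Figure D1:**
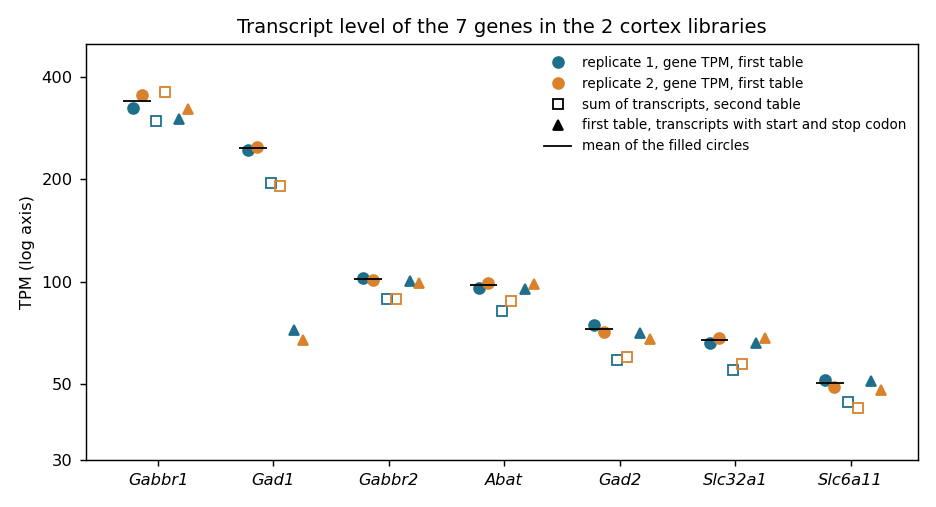
Each gene's TPM on a log axis in replicate 1 (blue) and replicate 2 (orange): filled circles are the gene table, with a line at their mean, open squares the sum over the second table's transcripts, and triangles the sum over first-table transcripts with an annotated start and stop codon. Gad1 is the only one of the 7 whose triangles (72.3 and 67.4 TPM) sit far below its circles (245 and 249 TPM).

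Gad1 is the gene whose level depended most on which transcripts were summed. The full-length coding model Gad1-201 (3355 nt, 17 exons, 593 codons) held 28.4% of the gene's TPM in replicate 1 and 25.1% in replicate 2, or 69.6 and 62.6 TPM. Gad1-206, annotated as a processed transcript without a coding sequence, held 39.9% and 41.2%, or 97.7 and 103 TPM. It shares 2919 of its 2996 nt with exons of Gad1-201, and the 77 nt of its first exon, whose end is shown above, are the only bases it has that Gad1-201 lacks. Gad1-204, a fragment of 398 nt that begins at the gene's upstream end and whose coding sequence is open at the 3′ end, held 27.0% and 29.0%. Its 66.1 and 72.3 TPM rested on 357 and 406 counts, 3.61% and 4.00% of the gene's counts, because TPM divides by length.

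The second table divided the same gene otherwise. There Gad1-201 held 49.3% of the TPM in replicate 1 and 50.8% in replicate 2, Gad1-206 held 21.5% and 20.9%, and Gad1-204 held 26.2% and 24.2%. Gad1-206 stood at 1.40 and 1.64 times Gad1-201 in the first table and at 0.436 and 0.412 times in the second. Which of these models leads is therefore not settled by these tables, while the short fragment's share of TPM was alike in both. Its share of counts was not: in the second table Gad1-204 had 189 and 176 counts, 1.82% and 1.65% of the gene's counts. The 3 models with a reading frame shortened to 223 codons held together 1.10% and 1.92% of Gad1 TPM in the first table, and 0.794% and 1.66% in the second.

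The ratio of Gad1 to Gad2 depended on the transcripts summed. By gene TPM it was 3.27 in replicate 1 and 3.51 in replicate 2, and the second table gave 3.30 and 3.18. Summed over transcripts with an annotated start and stop codon, a sum chosen after the data were seen, it was 1.02 and 0.993 in the first table and 1.68 and 1.77 in the second. Gad2 itself changed little, with 94.5% and 95.5% of its TPM in the coding model Gad2-201 (5744 nt, 585 codons). Of Gad1 TPM, 29.5% and 27.0% was in such transcripts in the first table and 50.1% and 52.5% in the second. The level of Slc32a1 relative to Gad1 was 0.270 and 0.274 by gene TPM in the first table, and over complete coding models 0.915 and 1.02 in the first table and 0.565 and 0.574 in the second. Among complete coding models of the first table, Gad1, Gad2 and Slc32a1 lay within 66.2 to 72.3 TPM in replicate 1 and within 67.4 to 68.4 TPM in replicate 2. In the second table they did not coincide: Gad1 had 97.6 and 100.2 TPM in such models, Gad2 58.0 and 56.6 TPM, and Slc32a1 55.2 and 57.5 TPM.

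**Figure D2:**
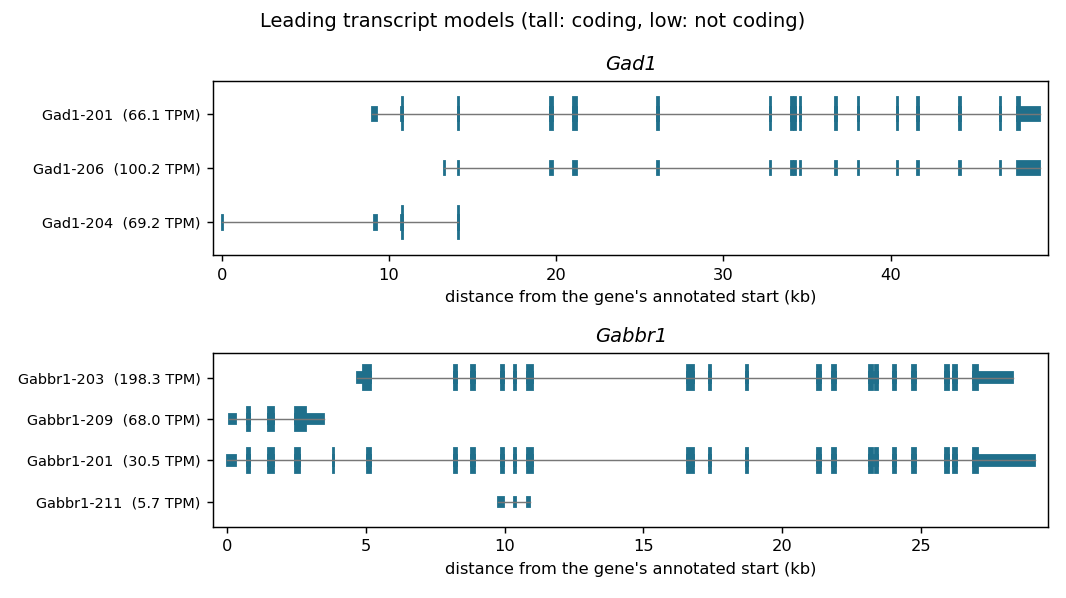
Exons of the leading Gad1 and Gabbr1 models by distance from the gene's annotated start in kb (tall blocks are coding, low blocks are not), with each model's mean TPM in the first table. Gad1-206 starts inside the gene, past the first coding exon of Gad1-201, and Gabbr1-203 starts 4665 nt downstream of Gabbr1-201.

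In Gabbr1 the GABA-B1b type led in both tables. Gabbr1-203 (4036 nt, 18 exons) held 58.9% of the gene's TPM in replicate 1 and 58.1% in replicate 2, or 191 and 206 TPM, and 54.1% and 47.5% in the second table. Gabbr1-201, the full GABA-B1a type (5248 nt, 23 exons), held 9.18% and 8.82%, or 29.7 and 31.3 TPM, and 5.78% and 5.29% in the second table. It lies under the limit of 10% set for naming a transcript and is named, with its values known, as the counterpart of Gabbr1-203. Gabbr1-203 stood at 6.41 and 6.59 times Gabbr1-201 in the first table and at 9.37 and 8.98 times in the second.

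Another Gabbr1 model, Gabbr1-209, shares the start codon of Gabbr1-201 but ends after 4 exons and 229 codons, before the exon common to the full receptors. It held 20.2% and 20.0% of Gabbr1 TPM, or 65.4 and 70.7 TPM, and 23.0% and 20.9% in the second table. Of its 1595 nt, 46.0% lie in exons of Gabbr1-201. When the 4 models with the upstream start codon were pooled, they held 111 and 117 TPM against 196 and 211 TPM for the 2 models with the internal start codon. The internal start stood at 1.78 and 1.81 times the upstream start in the first table, and at 1.73 and 1.68 times in the second. Grouped by start codon, the tables thus lay close together in TPM, whereas they differed on the single full-length pair. By counts the same ratio was 2.74 and 2.83 in the first table and 3.14 and 2.97 in the second. The short Gabbr1-209 held only 9.44% and 9.52% of the gene's counts in the first table, so the size of the ratio depends on the measure.

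The retained-intron fragment Gabbr1-211 (378 nt) stood at 2.14 TPM in replicate 1 and 9.30 in replicate 2 in the first table, from 10.8 and 48.8 counts. In the second table it had 29.2 and 67.7 TPM, 9.81% and 18.7% of the gene, from 95.8 and 229 counts. It was higher in replicate 2 in both tables, and its level differed between the tables more than between the libraries. The second table's Gabbr1 total of 298 and 362 TPM included it. Gabbr2 was simpler, with 98.3% and 98.0% of its TPM in Gabbr2-201 (5750 nt, 940 codons), and 95.0% and 94.7% in the second table.

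The receptor genes thus stood at 0.316 Gabbr2 per Gabbr1 in replicate 1 and 0.286 in replicate 2 by gene TPM, and at 0.298 and 0.246 in the second table. Over transcripts with a start and a stop codon, which still include the truncated Gabbr1-209, the ratio was 0.334 and 0.308, and 0.331 and 0.307 in the second table. Over these 8 values the ratio ran from 0.246 to 0.334, with Gabbr2 the lower in each. Every Gabbr1 sum in them includes truncated models such as Gabbr1-209, so none is a ratio of full receptor models alone. Gabbr2-201 stood at 101 and 99.4 TPM in the first table, beside 191 and 206 for Gabbr1-203 and 29.7 and 31.3 for Gabbr1-201. In the second table these were 84.4 and 84.5, 161 and 172, and 17.2 and 19.2 TPM. Slc6a11 stood at 0.537 and 0.493 of Abat by gene TPM and at 0.540 and 0.485 in the second table, which made it the ratio with the least difference between tables.

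Slc6a11-201 (4132 nt, 627 codons) held 99.3% and 98.4% of its gene's TPM. Abat-201 (4636 nt, 500 codons) held 88.7% in replicate 1 and 94.2% in replicate 2. Abat-203, which skips the exon printed above and keeps 444 codons, held 9.85% and 3.38%, or 9.47 and 3.37 TPM, from 398 and 147 counts. It is just under the limit for naming and was named with its values known. Its credibility intervals overlapped (5.77 to 12.2 against 0.896 to 6.90 TPM), and in the second table it held 7.63% and 6.38%, so the lower share in replicate 2 was not seen there at that size. Over the 7 genes, 35 transcripts are annotated, 11 passed the limit for naming, and 3 had no counts in either table.

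**Figure D3:**
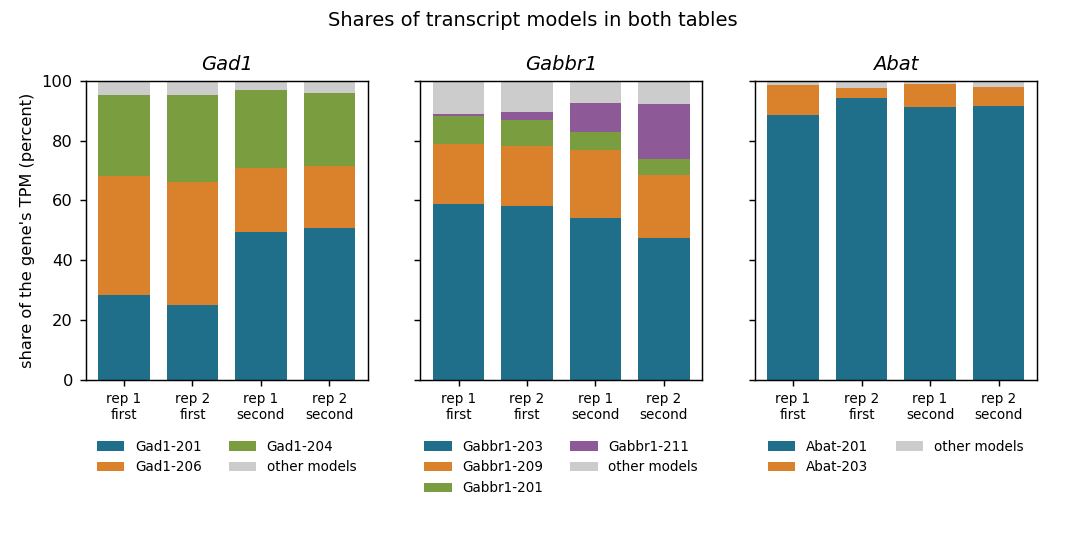
Share of the gene's TPM (percent) in the main models of Gad1, Gabbr1 and Abat, with 1 bar per library and table. In Gad1 the shares of Gad1-201 and Gad1-206 trade places between the tables, while in Gabbr1 and Abat the same model leads in all 4 bars.

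Annotated genes that overlap the 7 took almost no reads. Gad1os, antisense to Gad1, had 0 counts in both libraries of the first table and 0 and 1 in the second, and Gm14205, antisense to Slc32a1, had 2 counts in each library of the first. The pseudogene Gm8132 within Slc6a11 and the miRNA genes Gm23636 and Mir3967 within Gad2 had 0 counts. The library kit keeps strand, but the sources used here do not say whether counting used it, and reads of an antisense partner could have been counted with the gene.

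The libraries were then compared as log2 differences in CPM (counts scaled to library size by edgeR's TMM factors), replicate 2 minus replicate 1, with an SE that covers counting error only. Gad1 differed by -0.10 ± 0.02, Gad2 by -0.14 ± 0.02 and Slc32a1 by -0.03 ± 0.04 (counting SE). Slc6a11, at -0.17 ± 0.03, was the farthest from 0 of the 7. Abat differed by 0.01 ± 0.02, Gabbr1 by 0.02 ± 0.01 and Gabbr2 by -0.10 ± 0.02. No gene of the 7 was more than 2-fold apart, against 1.26% of the 14127 genes that averaged 50 counts or more and 0.229% of the 1743 genes with at least as many counts as the lowest of the 7. At a fold of 1.2 the count was again 0 of 7, against 27.4% and 8.61% of those genes, and 0 of 7 is near the background among genes of like counts. Scaled by spike-ins it was 2 of 7, Abat at 0.28 and Gabbr1 at 0.30, against 51.2% and 40.9% of those genes.

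Of the 7 genes 2 were higher in replicate 2, Abat and Gabbr1, against 45.6% of all genes, and their median of -0.10 lay beside a median of -0.02 over all genes. Scaling by ERCC spike-ins moved the median of all genes to 0.25, so that 7 of 7 were higher, against 88.1% of all genes. A scaling shifts all genes nearly alike, so the median of the 7 relative to that of all genes, -0.07, is the same by construction. In TPM, 4 of 7 genes were higher in replicate 2: Gad1 and Slc32a1 had opposite signs in TPM and in CPM. Gabbr1 had a log2 difference of 0.13 in TPM and 0.02 in CPM, and it was the only one of the 7 whose credibility intervals were separate between libraries (306 to 321 against 335 to 352 TPM). The effective length of Gabbr1, averaged over its transcripts, was 3197 nt in replicate 1 and 3133 nt in replicate 2, a log2 difference of -0.03. Slc32a1 had an effective length of 2697 nt in both libraries, and its log2 difference was 0.05 in TPM and -0.03 in CPM. TPM and TMM scale the libraries differently, so a gap between them arises also where the effective length is unchanged.

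**Figure D4:**
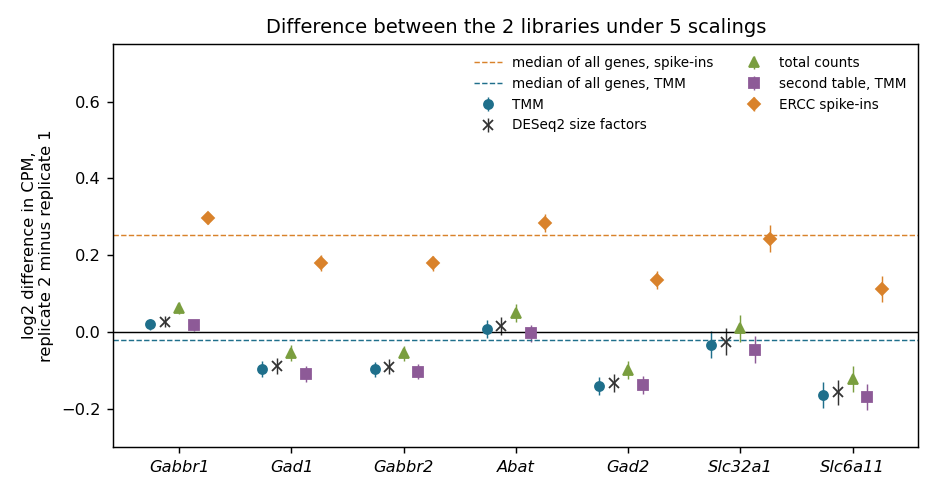
Log2 difference in CPM, replicate 2 minus replicate 1, under 5 scalings, with bars for the counting SE and dashed lines for the median of all genes by TMM and by spike-ins. All 7 spike-in values lie above 0 (0.11 to 0.30) and 5 of the 7 TMM values below it, and every value lies well within a 2-fold difference.

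Other genes of the pathway were measured beside the 7, from 6 lists of 19 genes. Of these, 18 reached 1 TPM in both libraries and had at least 50 counts on average. By TMM 10 were higher and 8 lower in replicate 2, against 45.6% of all genes higher. By spike-ins 17 of 18 were higher, against 88.1% of all genes. None was more than 2-fold apart by TMM, against 1.26% of all genes, and their median log2 difference was 0.01. Among the genes of cofactor and precursor supply, Glul, the astrocytic glutamine synthetase, stood at 1109 and 1058 TPM. Pdxk, which makes pyridoxal phosphate, had 67.4 and 67.6 TPM, and Slc38a1, a neuronal glutamine transporter, 56.8 and 52.2 TPM. In this list 1 of 4 genes was higher in replicate 2 by TMM, with a median of -0.10, and 4 of 4 by spike-ins.

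Aldh5a1, the enzyme after Abat in GABA breakdown, had 32.7 and 36.3 TPM, below Abat in both libraries. Of the other plasma membrane transporters on the list, Slc6a13 had 6.81 and 8.34 TPM and Slc6a12 0.670 and 0.650 TPM, both far below Slc6a11. The GABA-B auxiliary subunits, cytosolic proteins that tune the receptor's kinetics, ran from Kctd16 at 45.8 and 53.4 TPM through Kctd12 at 25.2 and 20.4 TPM to Kctd8 at 4.95 and 5.22 TPM. Each was below Gabbr2 in both libraries, and 1 of 3 was higher in replicate 2 by TMM and 2 of 3 by spike-ins.

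The list held 3 genes whose proteins are known to bind the sushi domain of GABA-B1a, and transcripts of all 3 were detected. App, the amyloid precursor gene, had 614 and 673 TPM, Pianp 71.9 and 69.0 TPM, and Ajap1 27.6 and 26.8 TPM. Only App exceeded the Gabbr1 gene as a whole, which includes the GABA-B1b type without sushi domains. Beside Gabbr1-201 alone, at 29.7 and 31.3 TPM, App and Pianp were higher and Ajap1 lower in both libraries. Beside the 4 pooled models with the upstream start codon, at 111 and 117 TPM, only App was higher. Of the effectors, the G protein gene Gnao1 stood at 312 and 333 TPM, Gnai2 at 118 and 115 TPM, Gnai1 at 80.4 and 85.3 TPM, and the potassium channel gene Kcnj9 at 50.3 and 56.7 TPM. In that list 4 of 6 genes were higher in replicate 2 by TMM, with a median of 0.02, and 6 of 6 by spike-ins.

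**Figure D5:**
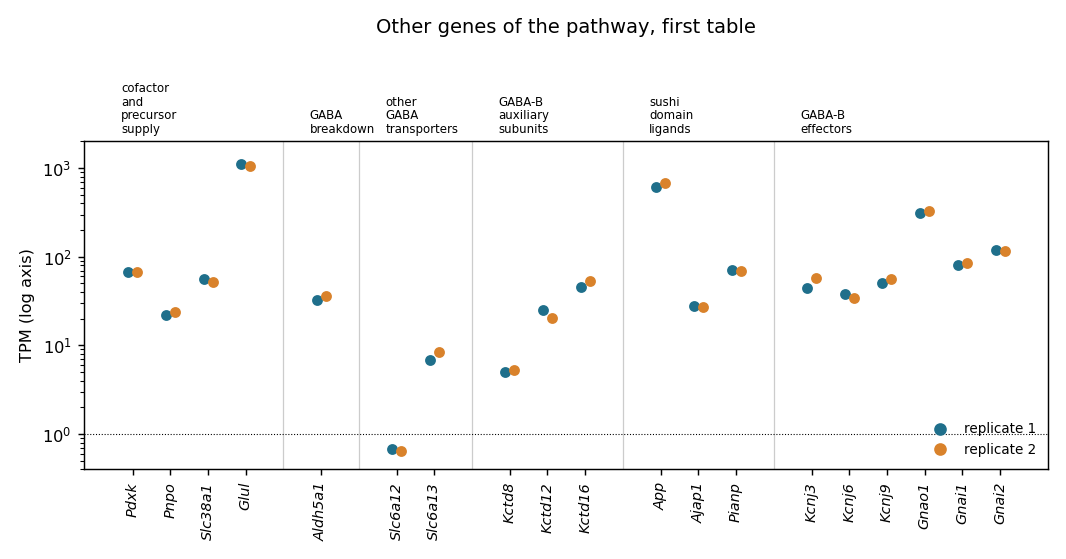
TPM (log axis) of 19 other genes of the pathway in replicate 1 (blue) and replicate 2 (orange), grouped by role, with a dotted line at 1 TPM. Glul is highest at 1109 and 1058 TPM, and Slc6a12 alone lies under the line. Of the 18 genes with at least 50 counts on average, 15 lie within 1.2-fold between the libraries in CPM by TMM. Of all 14127 genes with that many counts, 27.4% lie beyond 1.2-fold.

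Because the sample is bulk tissue, the number of cells that express a gene and the RNA per cell cannot be told apart. All 10 markers of GABAergic interneurons were detected, with a summed level of 460 TPM in replicate 1 and 439.9 TPM in replicate 2. Sst led them at 213 and 184 TPM, followed by Lamp5, Pvalb and Erbb4. By TMM 4 of the 10 were higher in replicate 2 and 6 lower, against 45.6% of all genes higher. Their median was -0.05, beside Gad1 at -0.10 and Gad2 at -0.14. By spike-ins 8 of 10 were higher, against 88.1% of all genes. Striatal projection neurons also make GABA and express Gad1, Gad2 and Slc32a1, and all 6 of their markers were detected as well, with a sum of 637 and 706 TPM. Ppp1r1b reached 279 and 310 TPM, Penk 205 and 226 TPM, Rgs9 48.0 and 63.0 TPM and Drd1 45.0 and 41.5 TPM. By TMM 4 of these 6 were higher in replicate 2 and 2 lower, against 45.6% of all genes higher. By spike-ins 6 of 6 were higher, against 88.1% of all genes. None of these markers was at 0, and their part in the levels of the GABA genes was not tested.

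The astrocyte markers, beside which Slc6a11 is read, were detected 5 of 5 with sums of 368 and 359.6 TPM. By TMM all 5 were lower in replicate 2, with a median of -0.13, as was Slc6a11 at -0.17. Of all genes 45.6% were higher. By spike-ins all 5 and Slc6a11 were higher, as were 88.1% of all genes. The direction was not particular to astrocyte markers, since endothelial markers had a TMM median of -0.16, with 2 of 3 lower. The part of astrocytes in the level of Slc6a11 was not tested. Excitatory neuron markers summed to 561 and 602 TPM, oligodendrocyte markers to 646 and 688 TPM, microglia markers to 71.4 and 71.0 TPM, endothelial markers to 49.3 and 44.7 TPM, oligodendrocyte precursor markers to 22.6 and 26.2 TPM, and meningeal fibroblast markers to 16.4 and 20.8 TPM. Of the olfactory bulb markers, Cdhr1 was detected at 6.82 and 7.92 TPM and Eomes stayed below 1 TPM, and of the thalamus markers, Tcf7l2 was detected at 4.21 and 5.24 TPM and Gbx2 stayed below 1 TPM.

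Among all listed genes, the nearest in level over the 2 libraries, by the larger of the 2 absolute differences in log2(TPM + 1), was Pdxk for Slc32a1 (0.02), Lamp5 for Abat (0.06) and for Gabbr2 (0.09), Pianp for Gad2 (0.06), Gnao1 for Gabbr1 (0.09), Pvalb for Slc6a11 (0.12) and Mobp for Gad1 (0.18). Each likeness rests on 2 libraries and is one of level only.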

How the data were processed

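Total RNA libraries of 2 animals, 1 each, formed 1 group. Per the deposited readme text, the authors used build mm10 with GENCODE M21; no source used here names the aligner or quantifiers. Expected counts and TPM, scaled by the authors over all features, were deposited per gene and transcript, with each transcript's percent of its gene (the first table). The model's credibility bounds are deposited as scores whose level is not stated. The second table holds the authors' estimated counts and TPM per transcript. Alleles of the hybrid were not analysed here.

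Counts were rounded to whole numbers and scaled with edgeR 4.0.16 (TMM) in R 4.3.3 to log2 CPM with a prior count of 1, and this calculation was checked on simulated counts. Alternatives were DESeq2 1.42.0 size factors, spike-in totals, total counts, the second table, a prior count of 5, no count minimum, TPM rescaled to nuclear protein-coding genes, leaving out each library and, chosen after seeing the data, complete coding models. A transcript was to be named at 10% of its gene's TPM in any library of either table; of each list, up to 4 genes of highest TPM and any below 1 TPM were to be named. The nearest listed gene is named for each member. Of the listed genes, 2 are not reported here and were left out of the lists' counts and sums. The members and lists were chosen with earlier results of these data known. Reads carried no molecular identifiers that the sources name. SEs were computed from the counts of 1 library per animal, so they cover counting error only.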

Additional observations from a re-analysis of the deposited data

How the results depend on the processing

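With 2 libraries, an SD rests on 1 difference, and the second table, rescaling and complete coding models moved many levels by more than that SD. In the second table the means were 193 TPM for Gad1, 59.5 for Gad2, 56.4 for Slc32a1, 43.5 for Slc6a11, 85.1 for Abat and 89.0 for Gabbr2, each lower than in the first table. Rescaled to nuclear protein-coding genes, which hold 48.2% of TPM, the means were 512 for Gad1, 151 for Gad2, 140 for Slc32a1, 104 for Slc6a11, 203 for Abat, 703 for Gabbr1 and 211 for Gabbr2. Complete coding models are those with an annotated start and stop codon, and they still include truncated models such as Gabbr1-209. Over them the means were 69.8 for Gad1, 69.2 for Gad2, 312 for Gabbr1 and 100.02 for Gabbr2. The ratio of Gad1 to Gad2 then had a mean of 1.01 in the first table and 1.73 in the second, and that of Slc32a1 to Gad1 0.966 and 0.570. By gene sums of the second table the ratio of Gabbr2 to Gabbr1 was 0.272 and that of Slc32a1 to Gad1 0.292. Mean shares in the second table were 21.2% for Gad1-206, 96.2% for Gad2-201, 50.8% for Gabbr1-203 and 94.9% for Gabbr2-201. The causes were not tested.

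Leaving out either library gave levels of 245 to 249 TPM for Gad1, 71.1 to 74.8 for Gad2, 66.2 to 68.4 for Slc32a1, 49.1 to 51.6 for Slc6a11, 96.1 to 99.6 for Abat, 324 to 354 for Gabbr1 and 101 to 102 for Gabbr2. With 2 libraries this only returns the value of the other library, so it is no separate check of the levels.

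Spike-in scaling reversed the log2 differences of Gad1 (0.18), Gad2 (0.14), Slc32a1 (0.24), Slc6a11 (0.11) and Gabbr2 (0.18) and their median (0.18), and put 7 genes higher in replicate 2. Total counts reversed Slc32a1 (0.0090) and gave a median of -0.055. With the second table's counts 1 of the 7 was higher in replicate 2, since Abat had -0.0043 there. Genes more than 2-fold apart numbered 341 with spike-ins and 5167 with no count minimum, against 178. Apart from spike-ins, 21 of 28 alternative differences of single genes stayed within the counting SE. Those that did not were the 7 genes scaled by total counts. A scaling shifts all genes nearly alike, so these are not 28 separate checks. No paired analysis was possible because the labels give 1 group.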
